A study of Mus musculus with 6 samples.

Results

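Enzymes and carriers that dispose of amino acid nitrogen and carbon were followed on 6 mouse arrays through 42 listed genes, read by gene symbol from the platform annotation. Of these, 36 were measured and 6 (Ass1, Mat2a, Glul, Gls2, Glud1 and Sds) were not analysed here. The 36 stood among 19505 genes with a symbol, read from 22206 probe sets with and without one. They were grouped by route, with 7 measured genes of the urea cycle, 9 of aromatic, 6 of sulfur and 4 of branched-chain amino acid breakdown, 4 of glutamine, glutamate and transamination, 5 of one-carbon and glyoxylate routes, and Aass of lysine breakdown. The study compared C57BL/6J mice given MBELN, exosome-like nanoparticles prepared from mulberry bark, with control mice titled PBS, with 3 arrays per group. Per the labels, MBELN was given by mouth in 100 µl each day, and tissue labelled colon was taken on day 7. Neither age nor sex of the mice is stated. Whether every array stands for its own mouse is not stated either, so a p-value here speaks for the spread among these 6 samples and that spread may be technical.

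Amino acid breakdown frees ammonia, which is toxic. In hepatocytes the urea cycle, split between mitochondria and cytosol, turns it into urea. Liver also opens the rings of tyrosine and tryptophan and runs the methionine cycle, whereas the first step of branched-chain breakdown is known to lie mainly outside hepatocytes. Colon, as labelled here, is not known as a site of ureagenesis.

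Values are log2 expression as deposited, from 3.38 up to a highest value shared by several probe sets. A gene was taken as above background where its value passed the background threshold, the 95th percentile over negative controls on the same array. This threshold lay between 7.93 and 10.11. The labelled tissue did not hold on all arrays. Colon epithelium markers had a median of 18.95 on control 1, with 12 of 14 above background, and medians of 4.68 to 5.74 on the other arrays. Liver markers had a median of 19.65 on MBELN 3, where 17 of 17 were above background, and medians of 4.96 to 7.00 elsewhere, with 0 to 4 above background. Brain markers stood out on control 3 (11 of 11 above background), heart markers on MBELN 1 (12 of 12) and squamous epithelium and skeletal muscle markers on MBELN 2 (13 of 14). On control 2, 0.311% of all probe sets were above background, and none of these marker lists had a member above it. Kidney markers, of another organ rich in amino acid enzymes, (9 genes) had 0 above background on each array. Of 8 small intestine markers, 0 to 2 were above background on any array. Arrays are called by their labels here. Since the labelled tissue did not hold, the group label of each array, and with it every group difference given here, is in doubt too. In bulk tissue, fewer cells of a type and less RNA per cell cannot be told apart.

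Most of the genes of amino acid breakdown were above background on MBELN 3, the array with liver genes, and on no other array. This held for 23 of 36 genes (63.9%), against 3.01% of all 22206 probe sets. On MBELN 3 itself 33 of 36 were above background, against 23.1% of all probe sets. The numbers on the other arrays were 7 on control 1 (26% of all probe sets there), 0 on control 2 (0.311%), 4 on control 3 (20.7%), 7 on MBELN 1 (27.7%) and 2 on MBELN 2 (14.3%). On those 5 arrays the share of these genes above background, between 0% and 19.4%, was thus below that of all probe sets. The list was drawn up from enzymes known from liver, with earlier results of these data in view, so these shares describe the arrays and test nothing. The median over the 36 genes lay between 5.16 (control 1) and 6.02 (control 2) on those arrays. Of the 23 confined genes, 22 allowed a bound on how far MBELN 3 stood over the values and thresholds of the other 5 arrays, with a median of at least 5.05 log2 units.

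**Figure D1:**
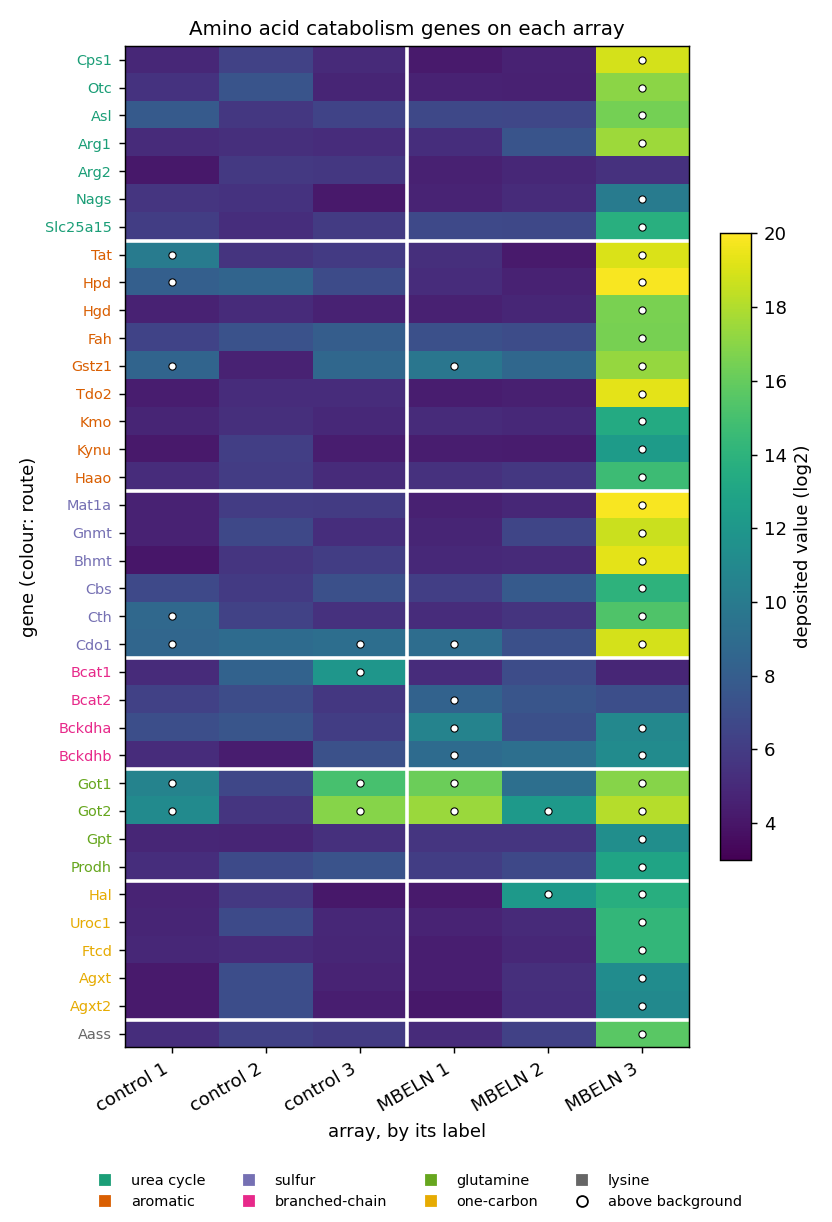
Deposited log2 values of the 36 measured genes (rows, coloured by route) on the 6 arrays (columns), with a white circle where the gene was above background. Colours are to be compared along a row, since probe sets differ in brightness. The column of MBELN 3 holds 33 circles, and the other columns hold 0 to 7.

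The routes differed in how far they were confined to MBELN 3. Confinement was complete for Aass and covered 6 of 7 urea cycle genes (Cps1, Otc, Asl, Arg1, Nags and Slc25a15) and 4 of 5 one-carbon genes (Uroc1, Ftcd, Agxt and Agxt2). It covered 6 of 9 aromatic genes (Hgd, Fah, Tdo2, Kmo, Kynu and Haao), 4 of 6 sulfur genes (Mat1a, Gnmt, Bhmt and Cbs) and 2 of 4 glutamine and transamination genes (Gpt and Prodh). No branched-chain gene was confined to it (0 of 4). Of the 13 genes that were not confined, 10 were above background on MBELN 3 and elsewhere, 2 only elsewhere (Bcat1 and Bcat2) and 1 (Arg2) on no array, where 57.2% of all probe sets were above background on none. In 33 of 36 genes the highest of the 6 values was the one on MBELN 3, against 12.8% of all probe sets.

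**Figure D2:**
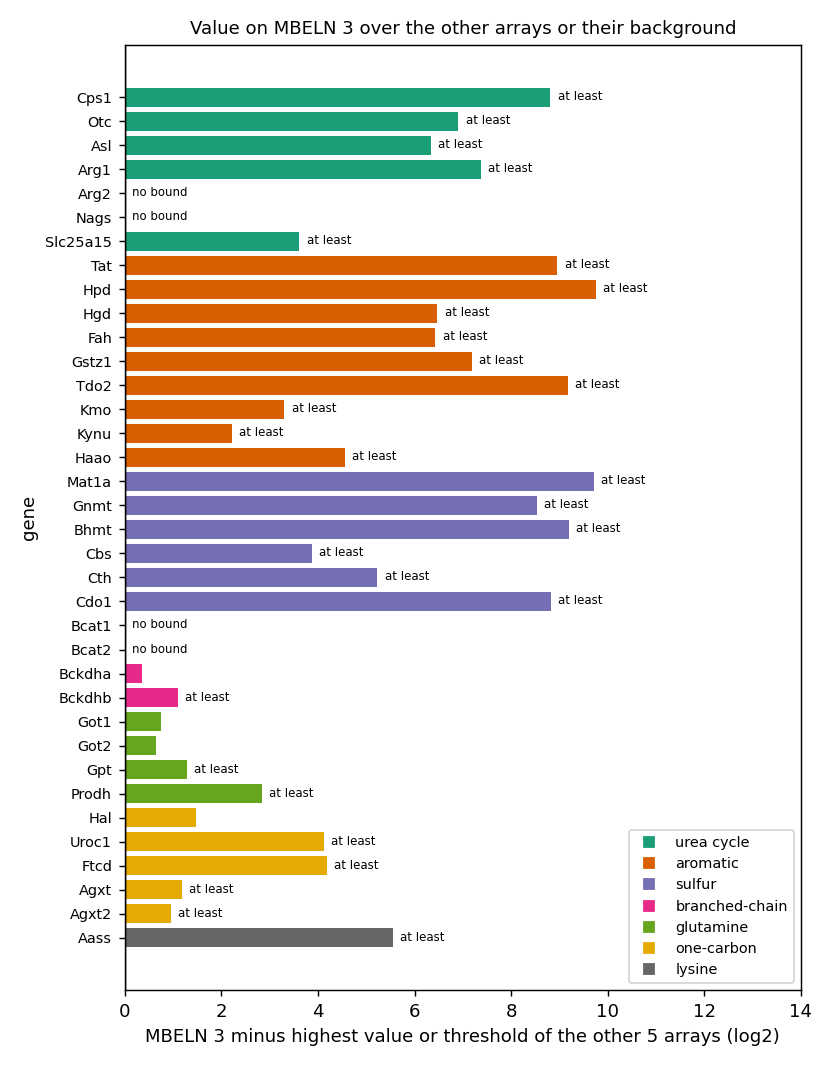
For each gene, the bar gives the log2 value on MBELN 3 minus the highest of the values and background thresholds of the other 5 arrays, coloured by route, and "at least" marks bars that end at a threshold and are bounds. Got1, at 0.75, and Got2, at 0.65, end at a measured value, and 4 genes (Arg2, Nags, Bcat1 and Bcat2) have no bound.

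Sequences just before the transcription start are shown for 5 genes that show these patterns across the arrays. Otc, Tdo2 and Agxt2 were confined to MBELN 3, Hal was also above background on MBELN 2, and Got2 was above background on 5 arrays. RefSeq promoter entries on GRCm38.p6 matched 27 of the 36 genes, with 33 start sites, and the 250 bases before each start were read. The positions are chrX:10252055-10252304 (plus strand) for Otc, chr3:81975729-81975978 (minus) for Tdo2, chr15:10358283-10358532 (plus) for the first of 2 overlapping Agxt2 entries, chr10:93488518-93488767 (plus) for Hal and chr8:95888402-95888651 (minus) for Got2. Capitals mark matches, on either strand, to TATAAA (the TATA box), CAAAGTCCA (an HNF4 element), TGTTTGC (a FOXA motif) or TTGCNNAA (a C/EBP motif).
Otc: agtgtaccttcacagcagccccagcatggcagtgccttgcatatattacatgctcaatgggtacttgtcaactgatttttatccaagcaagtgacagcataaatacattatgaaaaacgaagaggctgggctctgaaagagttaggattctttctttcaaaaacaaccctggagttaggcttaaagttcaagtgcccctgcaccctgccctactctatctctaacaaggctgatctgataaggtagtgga
Tdo2: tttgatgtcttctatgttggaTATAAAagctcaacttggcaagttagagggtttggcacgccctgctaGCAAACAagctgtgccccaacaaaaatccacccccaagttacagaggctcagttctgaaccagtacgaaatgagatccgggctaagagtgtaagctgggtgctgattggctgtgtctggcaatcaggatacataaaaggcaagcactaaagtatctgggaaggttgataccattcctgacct
Agxt2: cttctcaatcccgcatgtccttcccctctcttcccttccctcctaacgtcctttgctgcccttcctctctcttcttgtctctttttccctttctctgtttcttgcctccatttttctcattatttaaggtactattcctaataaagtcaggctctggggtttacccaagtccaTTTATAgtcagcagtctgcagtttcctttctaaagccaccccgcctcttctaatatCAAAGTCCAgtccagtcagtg
Hal: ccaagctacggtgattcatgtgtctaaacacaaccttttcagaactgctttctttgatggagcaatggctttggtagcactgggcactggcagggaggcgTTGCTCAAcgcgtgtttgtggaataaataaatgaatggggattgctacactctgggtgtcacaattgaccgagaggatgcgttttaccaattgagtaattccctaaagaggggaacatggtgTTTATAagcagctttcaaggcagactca
Got2: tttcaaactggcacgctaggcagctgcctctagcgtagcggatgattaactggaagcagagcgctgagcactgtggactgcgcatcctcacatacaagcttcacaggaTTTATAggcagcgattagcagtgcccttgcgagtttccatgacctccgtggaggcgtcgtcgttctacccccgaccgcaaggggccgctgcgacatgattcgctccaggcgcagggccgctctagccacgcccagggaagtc
Agxt2 holds the HNF4 letters from position -21, counted from the start site, and the TATA letters on the opposite strand from -77. Tdo2 holds the FOXA letters on the opposite strand from -182 and TATA letters from -229. Hal holds the C/EBP letters from -150 and TATA letters on the opposite strand from -28, and Got2 holds TATA letters on the opposite strand from -142. Otc holds none of the 4, which says only that these letters are not in this window. Matches to different motifs do not overlap in these windows. The printed genes are not typical in their letters. Among all genes with an entry, only Agxt2 holds the HNF4 letters, and only Tdo2 and Aass the FOXA letters. Among genes above background on MBELN 3 and elsewhere, only Hal and Got2 hold TATA letters, and only Hal the C/EBP letters.

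Over all 32851 windows of this length, 12.4% hold the TATA letters, 0.384% the HNF4 letters, 4.3% the FOXA letters and 9.56% the C/EBP letters. Of the 19 windows of genes confined to MBELN 3, 5 (26.3%) hold the TATA letters and 2 the HNF4 letters. The 2 Agxt2 windows, which share bases, are in both counts. The FOXA letters are in 2 (Tdo2 and Aass) and the C/EBP letters in 2 (Aass and Hgd). The TATA letters are also in 2 of 10 windows (20%) of genes above background on MBELN 3 and other arrays. In the remaining windows of these genes it is 1 of 4 (25%). CG dinucleotides are dense in promoters of widely used genes. Their median was 5 in the 19 windows of confined genes (range 0 to 43) and 6 over all windows. It was 7.5 in the 10 windows of genes above background on MBELN 3 and other arrays. Uroc1 has 0, Otc and Hgd 1 each, and Got2 19, but Cbs and Fah, both confined, have 21 and 16. The counts thus overlap between the confined genes and the others.

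In the urea cycle, 6 of 7 measured genes stood far higher on MBELN 3 than on any other array. Cps1, whose enzyme makes carbamoyl phosphate from ammonia in mitochondria, was at 4.88, 6.34 and 5.01 on control 1 to 3 and at 4.26, 4.64 and 18.92 on MBELN 1 to 3. Otc, which joins carbamoyl phosphate to ornithine, was at 5.52, 7.42, 4.73, 4.65, 4.54 and 17.01 in the same order. For both, the 3 MBELN arrays held the lowest and the highest values, so the groups overlapped. Arg1, the cytosolic arginase that releases urea, was at 5.12, 5.32 and 5.19 in control and at 5.25, 7.39 and 17.48 in MBELN. Asl, which splits argininosuccinate into arginine and fumarate, was at 16.45 on MBELN 3 and 5.73 to 7.79 elsewhere. Because the other arrays were below background, MBELN 3 gives only a bound against them, taken over the highest of each array's threshold and own value. On this basis Cps1 was at least 449-fold, Arg1 at least 166-fold, Otc at least 120-fold and Asl at least 81.3-fold higher on MBELN 3 than on any other array. These compare single arrays and carry no replicate error.

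Genes that supply the cycle were also highest on MBELN 3. Slc25a15, the mitochondrial ornithine carrier, was at 13.72 on MBELN 3 and 5.24 to 6.75 elsewhere. Nags, which makes the activator that Cps1 needs, was at 10.09 on MBELN 3 and 4.17 to 5.64 elsewhere, and no fold bound could be given, since control 2 had a threshold of 10.11. Arg2, the mitochondrial arginase known from tissues other than liver, was at 4.09, 5.85, 5.77, 4.55, 4.86 and 5.40, above background on no array, and was the 1 urea cycle gene that was not highest on MBELN 3. Of 9 further genes around the cycle, such as carriers and ornithine enzymes, 4 were above background on MBELN 3 and 1 of them only there. That gene was Slc7a2, a cationic amino acid transporter, at 15.26 on MBELN 3. Slc25a13, the aspartate-glutamate carrier known from liver, was at 11.58 on MBELN 3 and 8.69 on MBELN 1.

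All 9 genes of tyrosine and tryptophan breakdown were above background on MBELN 3. Tyrosine is taken in turn by Tat, Hpd, Hgd, Gstz1 and Fah to fumarate and acetoacetate. Tat, the aminotransferase that opens this route, was at 10.05, 5.59 and 5.88 on control 1 to 3 and at 5.27, 4.25 and 19.06 on MBELN 1 to 3. It was thus above background on control 1, the array with colon genes, as well as on MBELN 3. With the 99th percentile as background, Tat did not pass on control 1. Hpd, which forms homogentisate, was at 8.15, 8.51, 6.89, 5.16, 4.65 and 19.86. Its value on control 1 lay just over that array's threshold of 8.14, and the higher value on control 2 lay under that array's own. Hgd, the dioxygenase for homogentisate, was at 16.58 on MBELN 3 and 4.58 to 5.12 elsewhere, and Fah, the last enzyme, at 16.54 against 6.42 to 8.0. Gstz1, the isomerase between them, was less confined, at 8.48, 4.66, 8.65, 9.69, 8.67 and 17.30. It was above background on control 1 and MBELN 1 too.

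In the kynurenine route from tryptophan, Tdo2, Kmo, Kynu and Haao were each above background on MBELN 3 alone. Tdo2, the hepatic dioxygenase that opens the indole ring and whose promoter is printed above, was at 4.38, 5.14 and 5.15 in control and at 4.38, 4.50 and 19.28 in MBELN. On MBELN 3 it was at least 577-fold higher than on any other array. Kmo, which hydroxylates kynurenine, was at 13.41 on MBELN 3, Kynu, which cleaves its product, at 12.32, and Haao, which leads on to quinolinate, at 14.66. On the other arrays these 3 lay between 4.17 and 6.16. Of 13 other genes of the aromatic routes, 10 were above background on MBELN 3, 5 of them only there. Pcbd1, which recycles the pterin cofactor, was at 16.38 on MBELN 3 and 9.08 on control 1. Ido1, the dioxygenase for tryptophan known from outside liver, was above background on no array, at 6.82 on control 1 and 4.67 to 5.83 elsewhere.

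All 6 sulfur amino acid genes were above background on MBELN 3, and the 2 that handle cysteine last, Cth and Cdo1, were so on other arrays too. Mat1a, the liver form of methionine adenosyltransferase, was at 4.63, 6.00 and 5.94 in control and at 4.54, 4.86 and 19.81 in MBELN. Gnmt, which spends S-adenosylmethionine on glycine, was at 18.63 on MBELN 3 and 4.62 to 6.69 elsewhere. Bhmt, which remakes methionine from homocysteine and betaine, was at 19.30 against 4.05 to 6.09. The bounds for MBELN 3 over any other array were at least 836-fold for Mat1a, 587-fold for Bhmt and 369-fold for Gnmt. The table's highest value is shared by 32 probe sets on MBELN 3, so differences near it may be compressed.

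Cbs, the first enzyme of transsulfuration, was at 13.99 on MBELN 3 and 5.87 to 7.81 elsewhere. Cth, which follows it and yields cysteine, was at 8.77, 6.33, 5.40, 5.17, 5.57 and 15.34, so control 1 was above background too. Cdo1, which oxidises cysteine towards taurine, was at 8.62, 8.94 and 9.13 in control and at 9.06, 7.15 and 18.93 in MBELN. It was above background on control 1, control 3 and MBELN 1 as well. On control 1 and control 3 it lay close to the thresholds of 8.14 and 8.89, while the threshold of MBELN 1 was 7.93. Of 14 other sulfur genes 13 were above background on MBELN 3 and 6 of them only there. Ahcy, which clears S-adenosylhomocysteine, was at 18.41 on MBELN 3 but also above background on control 1 (11.58), control 3 (9.06), MBELN 1 (9.91) and MBELN 2 (9.60).

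Branched-chain breakdown had a different pattern with the 95th percentile as background, with no gene confined to MBELN 3. Of its 4 genes, 3 were then above background on MBELN 1, the array with heart genes and the lowest threshold (7.93). With the 99th percentile as background, none of the 4 was above it on MBELN 1 or control 3. The pattern on these arrays thus depends on the threshold. Bcat1, the cytosolic aminotransferase known from brain, was at 5.11, 8.37 and 11.93 on control 1 to 3 and at 5.19, 6.93 and 4.82 on MBELN 1 to 3. It was above background on control 3 alone, the array with brain genes, and MBELN 3 held its lowest value. Bcat2, the mitochondrial aminotransferase, was at 6.26, 6.92, 5.74, 8.38, 7.46 and 7.10, and only MBELN 1 was above background. Both aminotransferases were therefore below background on the array with liver genes.

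The dehydrogenase that follows was above background on both MBELN 1 and MBELN 3 with the 95th percentile as background. Bckdha, its E1 alpha subunit, was at 7.11, 7.45 and 6.09 in control and at 10.58, 7.17 and 10.93 in MBELN. Bckdhb, the E1 beta subunit, was at 5.15, 4.33 and 7.19 in control and at 8.97, 9.18 and 11.20 in MBELN, and its groups did not overlap. The value on MBELN 2 lay under that array's threshold of 9.34. Over the 4 genes and 17 further ones, the median was 9.87 on MBELN 1, with 20 of 21 above background, and 10.63 on MBELN 3, with 18 of 21. It was 8.26 on control 1 (11 above background), 8.39 on control 3 (9), 7.73 on MBELN 2 (5) and 6.32 on control 2 (0). Echs1, an enoyl-CoA hydratase, was at 15.16 on MBELN 1 and 14.84 on MBELN 3, with 11.02, 6.23 and 9.09 on control 1 to 3 and 11.68 on MBELN 2. Hibadh, of valine breakdown, was at 10.17, 5.28, 11.18, 13.17, 13.22 and 15.57.

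**Figure D3:**
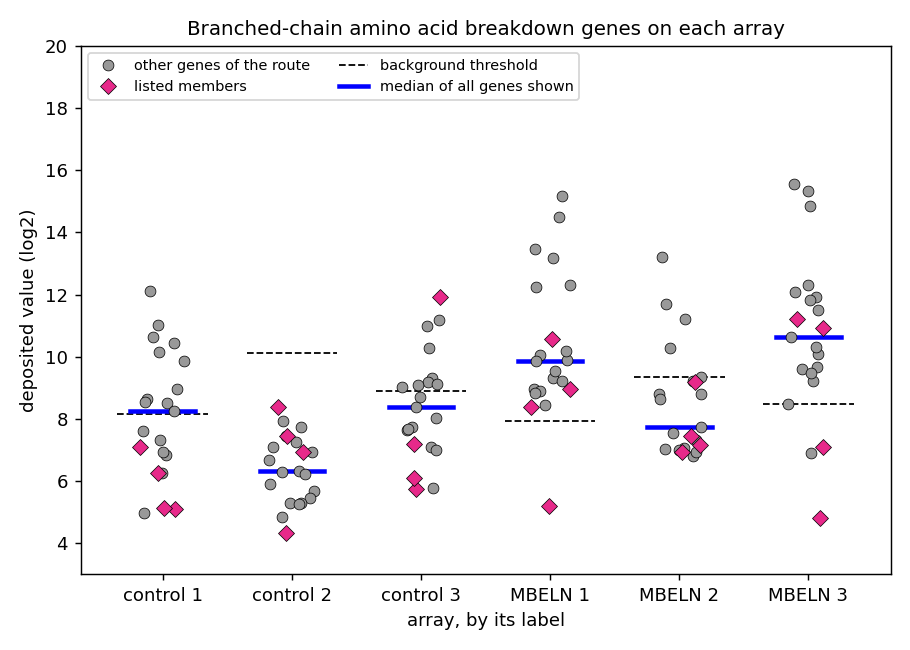
Log2 values of 21 branched-chain breakdown genes on each array, with the 4 listed genes as diamonds and 17 others as circles, the median as a solid line and the background threshold as a dashed line. Medians are 9.87 on MBELN 1 and 10.63 on MBELN 3, and between 6.32 and 8.39 on the other arrays.

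Among glutamine and transamination genes, the 2 aspartate aminotransferases were spread over most arrays. Got1, the cytosolic form, was at 10.61, 6.60 and 15.05 in control and at 16.19, 9.20 and 16.94 in MBELN. Got2, the mitochondrial form of the malate-aspartate shuttle, was at 11.12, 5.66 and 16.94 in control and at 17.46, 12.18 and 18.11 in MBELN. Both were above background on control 1, control 3, MBELN 1 and MBELN 3, and Got2 on MBELN 2 too, and both groups overlapped. Control 3, MBELN 1 and MBELN 3, with brain, heart and liver genes, held the 3 highest values of each. Gpt, the alanine aminotransferase, was at 4.84, 4.76, 5.36, 5.59, 5.62 and 11.39, and Prodh, which starts proline breakdown, at 12.94 on MBELN 3 and 5.23 to 7.36 elsewhere. Of 10 other genes here, 8 were above background on MBELN 3 and 5 of them only there. Slc38a3, a glutamine transporter, was at 18.66 on MBELN 3 and 10.58 on control 3. Slc38a4, an amino acid transporter of liver, was at 19.12 on MBELN 3 and 4.43 to 7.16 elsewhere.

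Histidine is taken by Hal, Uroc1 and then Ftcd, which passes a one-carbon unit to folate, and these 3 did not share 1 pattern. Hal, the ammonia-lyase that makes urocanate, also known as a skin enzyme, was at 4.69, 5.80 and 4.09 in control and at 4.23, 12.19 and 13.66 in MBELN. It was above background on MBELN 2, the array with squamous epithelium genes, and on MBELN 3, and its 2 values there lay 1.48 log2 units apart. Uroc1, which takes urocanate onward, was at 14.22 on MBELN 3 but 5.02 on MBELN 2. Ftcd was at 14.28 on MBELN 3 and 4.89 on MBELN 2, under background there. Agxt and Agxt2, the peroxisomal and mitochondrial alanine-glyoxylate aminotransferases, were at 11.29 and 11.06 on MBELN 3. On control 2 both held the same value, 7.00, which 201 probe sets of that array share, and on the remaining arrays they lay between 4.11 and 5.29. Of 14 other one-carbon genes 12 were above background on MBELN 3 and 9 of them only there, among them Sardh, of sarcosine breakdown, at 14.41. Aass, the first enzyme of lysine breakdown, was at 15.66 on MBELN 3 and 5.08 to 6.31 elsewhere. Of 6 other lysine genes 5 were above background on MBELN 3, and Pipox, an oxidase of pipecolate, was at 16.99 there.

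Between the labelled groups, no gene of amino acid breakdown passed limma's test. Of the 36 genes 0 passed at an adjusted p under 0.05, against 0% of all probe sets, and so did 0 of 83 further genes of these routes. The adjusted p was at least 0.936 in limma for every one of the 36. The fitted difference was above 0 in 34 of 36, with a median of 2.89 log2 units, where 49.6% of all probe sets were above 0 with a median of -0.01. Groups did not overlap, with MBELN higher, for 5 of 36 (Slc25a15, Gstz1, Bcat2, Bckdhb and Gpt), against 3.58% of all probe sets, and with MBELN lower for 0, against 3.26%. In Slc25a15 (6.67 against 6.08), Gpt (5.59 against 5.36), Bcat2 and Gstz1, the lowest MBELN and highest control values both lay under background. Their separation thus rests on values that cannot be told from background. In Bckdhb the lowest MBELN value, 8.97, was above background and the highest control value, 7.19, was not. The threshold of control 2, 10.11, lay over 8.97 and over the value on MBELN 2, 9.18. Control 2 can thus not be placed below either array. At an unadjusted p under 0.05 in either direction there was 1 of 36, against 1.9% of all probe sets (422). It had MBELN higher and was Bckdhb, against 1.37% of all probe sets in that direction, and 0 had MBELN lower, against 0.531%.

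The group difference of most of these genes rested on MBELN 3. Cps1 was 9.27 ± 8.36 in MBELN (SD, n = 3) and 5.41 ± 0.81 in control (SD, n = 3), a fitted log2 difference of 3.86 (SE 4.01). Without MBELN 3 it was -0.96 (SE 0.72). Over the 36 genes the median without MBELN 3 was -0.16, with 14 of 36 above 0, where 48.6% of all probe sets were. The sign turned for 20 of 36 genes. Of these 20, 16 were above background on MBELN 3 alone, so that without it all their values lay under background and their sign has no meaning. The other 4 were Tat, Hpd, Cth and Cdo1. On MBELN 3, 17 of 17 liver markers were above background. Their part in these differences was not tested. By route the median went from 3.26 to -0.23 in the urea cycle, from 2.98 to -0.18 in aromatic, from 3.51 to -0.51 in sulfur and from 2.49 to -0.43 in one-carbon genes. Hpd, without MBELN 3, had a difference of -2.95 (SE 0.74) and was the 1 gene with MBELN lower at an unadjusted p under 0.05, against 0.162% of all probe sets. It was above background on none of the 2 MBELN arrays then left.

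**Figure D4:**
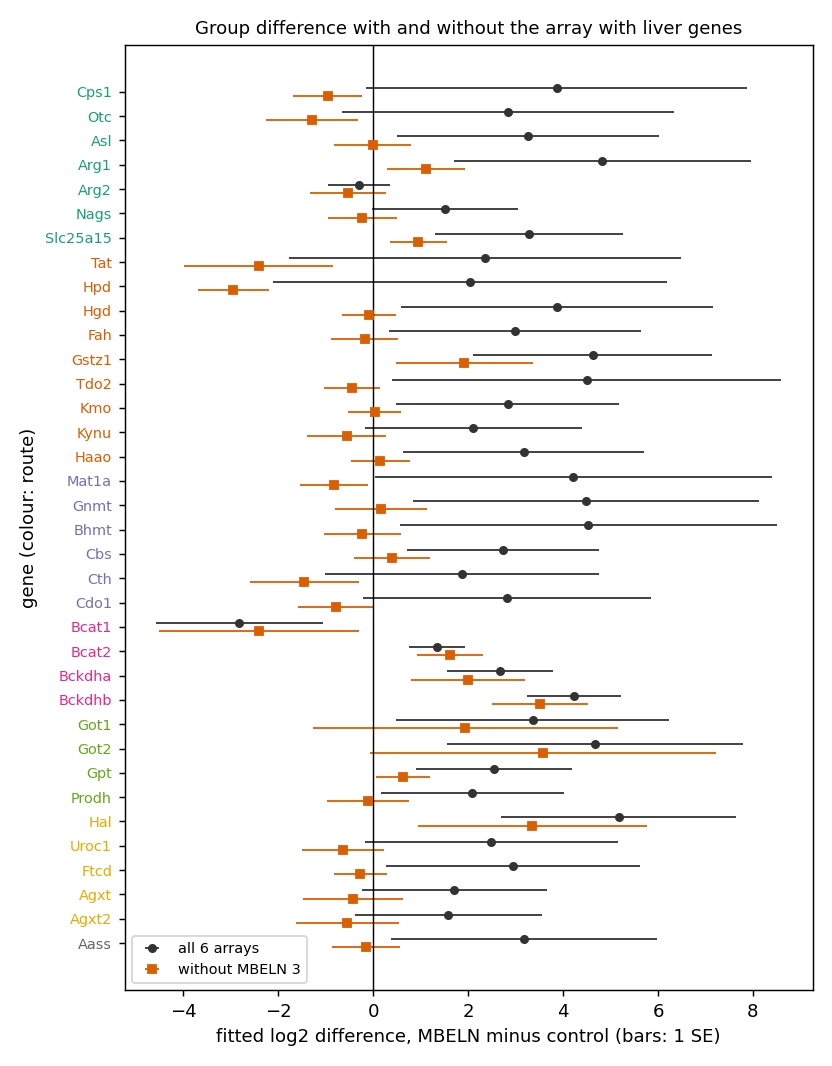
Fitted log2 differences, MBELN minus control, for the 36 genes with bars of 1 SE, over all 6 arrays (circles) and without MBELN 3 (squares). Most circles lie above 0 and most squares near it, with medians of 2.89 and -0.16. Without MBELN 3, 14 genes stay above 0, among them Bckdhb, Bckdha and Bcat2 but also Got2 (3.58), Hal (3.35) and Got1 (1.94).

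The fitted differences of the branched-chain genes kept their direction without the array with liver genes, though most values they rest on lay under background. Bckdhb was 9.78 ± 1.23 in MBELN and 5.55 ± 1.47 in control (SD, n = 3 each), a fitted log2 difference of 4.23 (SE 1.0) with a limma adjusted p of 0.936. Control arrays were all below background. The MBELN mean as deposited was 1.67-fold over the mean control threshold. That is no strict bound, since MBELN 2 was under background too. Without MBELN 3 the fitted difference was 3.52 (SE 1.01). The fold over the mean control threshold was then only 1.02, with an MBELN mean of 9.07 and a threshold of 9.05. Bckdha had a difference of 2.68 (SE 1.12), and 1.99 (SE 1.20) without MBELN 3. Its fold taken in the same way was 1.43 over all arrays, again with MBELN 2 under background. Without MBELN 3 its MBELN mean of 8.87 lay under the mean control threshold. Bcat2 had a difference of 1.34 (SE 0.58), and 1.61 (SE 0.69) without MBELN 3, and was below background on all but MBELN 1. Bcat1 had -2.82 (SE 1.76), and -1.09 without control 3.

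Of the 17 further branched-chain genes, 17 had a fitted difference above 0, with a median of 2.15, against 49.6% of all probe sets. Among the brighter probe sets, filtered at the median, 68.7% were above 0, with a median of 0.583, and all 17 genes passed that filter. Of the 17, 8 were at an unadjusted p under 0.05 in limma with MBELN higher, against 1.37% of all probe sets. Echs1 had a difference of 5.11 (SE 1.52), Hibadh 5.11 (SE 1.68), Aldh6a1, of valine breakdown, 4.33 (SE 1.33) and Mccc1, of leucine breakdown, 2.79 (SE 0.84), each with a limma adjusted p of 0.936. Without MBELN 3 all 17 were above 0 with a median of 1.94, against 48.6% of all probe sets. Then 2 were at an unadjusted p under 0.05 with MBELN higher, against 1.17%. Without MBELN 1, the array with 12 of 12 heart markers, 16 of 17 were above 0 (median 1.73), against 48.6% of all probe sets, and 5 were at an unadjusted p under 0.05 with MBELN higher, against 1.05%. Without control 2, where 0 of the 17 were above background, 15 of 17 were above 0 (median 1.71), against 55.5% of all probe sets, and 4 were at that p, against 1.02%. Without both control 2 and MBELN 3 it was 13 of 17 (median 1.48), against 53.9%. The part of heart and liver genes in this difference was not tested.

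For the remaining genes that were not confined to MBELN 3, standard errors were large beside the differences. Got2 had a fitted log2 difference of 4.68 (SE 3.12), and 1.89 without control 2. Got1 had 3.36 (SE 2.88), and 1.28 without control 2, the array on which it was lowest at 6.60. Hal had 5.17 (SE 2.48), with the 3 control arrays and MBELN 1 below background. Its MBELN mean as deposited was 1.98-fold over the mean control threshold. That is no strict bound, since MBELN 1 was under background. Without MBELN 3 the fitted value for Hal was 3.35 (SE 2.42), and its MBELN mean of 8.21 lay under the mean control threshold of 9.05. Gstz1 had 4.62 (SE 2.52) and 1.92 (SE 1.44) without MBELN 3. Its lowest MBELN value, 8.67 on MBELN 2, and its highest control value, 8.65 on control 3, both lay under background.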

How the data were processed

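Values are log2 expression as deposited by the authors in 1 table of 6 arrays. Transcriptome Analysis Console 4.0 is named in the submitters' processing notes. Per the labels' protocols, biotinylated cRNA came from total RNA (90 ng), and an amplicon panel is named beside it. The log2 scale was read from the values. How they were summarised and normalised is not stated. From 28846 probe sets 6640 controls were left out (5222 negative controls set the background), leaving 22206, of which 19572 had 1 symbol, 0 several and 2634 none. All 19572 matched the RefSeq gene table by Entrez number. Each of the 36 measured genes had 1 probe set. Groups were compared with limma 3.58.1 in R 4.3.3 (lmFit and eBayes, 2-sided, Benjamini-Hochberg over all probe sets, threshold 0.05), which was tested on simulated data. For arrays, their number limits the precision. Members, routes and gene lists were chosen with earlier results of these data known. Any member could be named, and of other genes, per route, the 2 with the smallest p and the 2 highest on MBELN 3. Alternatives were quantile normalisation, equal medians, array weights, limma's trend and robust options, a replicate block, filters on dim probe sets, averaging probe sets by gene, other background percentiles and leaving out arrays. All 6 sample columns were used. Figures used Python 3.11.15 with matplotlib 3.10.9.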

Additional observations from a re-analysis of the deposited data

How the results depend on the processing

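With 3 arrays a group and marker genes of different tissues on different arrays, the spread within groups limits every comparison. Under the alternatives for the fit, 0 of the 36 genes and 0 probe sets passed limma's adjusted test, with 197 (of the brighter probe sets, filtered at the median) to 1380 (without control 1) at an unadjusted p under 0.05. The median over the 36 genes kept its direction under all of them but leaving out MBELN 3. Without both control 2 and MBELN 3 it was only 0.0539, with 20 genes above 0 and 16 below. Leaving out 1 array at a time, log2 differences that turned ranged as follows: the median of the 36 genes -0.16 to 4.54, the urea cycle median -0.23 to 4.92, the aromatic median -0.18 to 4.66, the sulfur median -0.51 to 5.65, the one-carbon median -0.43 to 4.14, the lysine median -0.15 to 5.15, Cps1 -0.96 to 6.37, Otc -1.30 to 4.94, Asl -0.0078 to 4.92, Arg2 -0.88 to 0.0049, Nags -0.23 to 2.47, Tat -2.41 to 4.99, Hpd -2.95 to 4.66, Hgd -0.0905 to 5.91, Fah -0.18 to 4.61, Tdo2 -0.45 to 7.00, Kynu -0.56 to 3.46, Mat1a -0.83 to 6.81, Bhmt -0.23 to 6.93, Cth -1.46 to 3.63, Cdo1 -0.79 to 5.10, Prodh -0.11 to 3.33, Uroc1 -0.64 to 4.14, Ftcd -0.27 to 4.66, Agxt -0.43 to 2.99, Agxt2 -0.54 to 2.93, Aass -0.15 to 5.15. MBELN 3 was the array whose loss turned each of these but Arg2, which turned without control 2, and with array weights (0.22). Without both control 2 and MBELN 3, a choice made after the data were seen, these turned: the urea cycle median -0.23, the sulfur median -0.32, Cps1 -0.50, Otc -0.53, Asl -0.47, Nags -0.0225, Tat -3.20, Hpd -2.62, Fah -0.15, Tdo2 -0.32, Mat1a -0.59, Bhmt -0.0562, Cth -1.71, Cdo1 -0.77, Got1 -0.13, Ftcd -0.18. Equal medians moved the median difference of all probe sets from -0.01 to 0.11. The count of genes confined to MBELN 3 was 23, against 3.01% of all probe sets. With the 90th percentile as background it was 21, against 2.8%, and with the 99th it was 25, against 2.16%. When another array was left out it was 23 to 26, with 26 without control 1. Genes passing background with the 99th percentile numbered 0 on control 1, 2 on control 3, 2 on MBELN 1 and 0 on MBELN 2. The 2 were Got1 and Got2 on both arrays. With the 90th, 5 passed on MBELN 2. Shares of all probe sets were not taken for these counts per array, nor for the counts with an array left out. The replicate number as a block left the median at 2.89, called 0 genes and moved the probe sets at an unadjusted p under 0.05 from 422 to 624. Whether the numbers pair the arrays is not settled. Correlations of deviations between arrays of the same number were 0.11, 0.12 and -0.05. For control 1 and control 2 these were the highest, while control 3 correlated best with MBELN 1 (0.096).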

Other observations

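On control 1, the array with colon genes, 7 of the 36 genes were above background: Tat, Hpd, Gstz1, Cth, Cdo1, Got1 and Got2. Hpd, at 8.15, lay just over the threshold of 8.14. With the 99th percentile as background, none of the 7 passed on control 1, so this list depends on the threshold. None of the 7 was a listed gene of the urea cycle or of the branched-chain route. Of further genes, 11 of 17 of the branched-chain route and 3 of 9 around the urea cycle were above background there. Over all 83 further genes it was 31, where 26% of all probe sets were above background. With 1 array showing colon genes, these values carry no replicate error.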
